A study of Mus musculus with 4 samples.

Results

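The 6 genes described here, *Ran*, *Nap1l1*, *Eif3c*, *Anapc1*, *Lcorl* and *Amn1*, are genes read by at least 4 probe sets each in mouse testis, in which every tested probe set lay on the same side of the WT level in *Ccnyl1*-/- mice. They were picked from these arrays for that pattern, so that the difference between the genotypes is given for them as a description. The platform annotation pairs 18193 genes with a probe set of their own, of which 1218 had at least 4 tested. Of these 1218 genes, 188 (15.4%) had all tested probe sets on the same side. In 7 genes, the 6 described here and *Wdfy1*, the mice of the genotypes also did not overlap on any of them. The arrays compared the testes of 2 *Ccnyl1*-/- mice with those of 2 WT mice, all C57BL/6 adults 2 months old, with 1 array per mouse. The *Ccnyl1*-/- mice carry the *Ccnyl1* tm1a (EUCOMM) Wtsi allele, a LacZ-tagged KO-first insertion present in all tissues and not in the testis alone, and they came from pairings of heterozygotes. Each probe set of the Affymetrix GeneChip is a group of short oligonucleotides against 1 stretch of a transcript, and its MAS 5.0 signal is an intensity with no absolute meaning. Signals of different probe sets are used to order them as bright or dim and to sum markers, but not as relative amounts of RNA. A whole testis holds many cell types, so that fewer cells of a type and less RNA per cell cannot be told apart.

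The 6 genes belong to different pieces of basic cell machinery. *Ran* encodes the small GTPase that gives transport through the nuclear pore its direction: its GTP form releases cargo from importins in the nucleus and loads exportins. *Nap1l1* encodes a histone chaperone of the NAP family, which carries histones H2A and H2B and hands them to chromatin. *Eif3c* encodes a core subunit of eIF3, the complex that helps the small ribosomal subunit find an mRNA. *Anapc1* encodes the scaffold subunit of the anaphase-promoting complex (APC/C), the ubiquitin ligase that marks cyclin B and securin for destruction and is needed to complete meiosis. *Lcorl* encodes a nuclear protein related to LCOR, and both proteins have been found as accessory subunits of the Polycomb complex PRC2. *Amn1* is named after a budding yeast protein that antagonises the mitotic exit network.

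The stretches of genome at which these transcripts start are shown for 4 of the genes, the pair that was lower and 2 of those that were higher in *Ccnyl1*-/- testes, because the letters matched differ between them. Each runs from 250 bases before to 50 bases after a start annotated by RefSeq in GRCm38.p6, 5′ to 3′ along the gene, and capitals mark every match, on either strand, to 7 motifs: the cAMP response element TGACGTCA, the NRF1 core CGCATGCG, the ETS site CCGGAAGT, the YY1 site AAGATGGC, the GC box GGGCGG, the CCAAT box CCAAT and the E-box CACGTG.
Nap1l1, chr10:111472977-111473276, plus strand: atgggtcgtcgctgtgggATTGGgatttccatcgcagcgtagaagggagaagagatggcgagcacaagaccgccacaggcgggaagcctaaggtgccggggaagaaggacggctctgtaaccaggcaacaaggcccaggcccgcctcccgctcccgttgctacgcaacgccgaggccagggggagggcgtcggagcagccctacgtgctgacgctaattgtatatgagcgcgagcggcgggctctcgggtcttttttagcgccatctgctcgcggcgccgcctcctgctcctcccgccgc
Eif3c, chr7:126566317-126566616, minus strand: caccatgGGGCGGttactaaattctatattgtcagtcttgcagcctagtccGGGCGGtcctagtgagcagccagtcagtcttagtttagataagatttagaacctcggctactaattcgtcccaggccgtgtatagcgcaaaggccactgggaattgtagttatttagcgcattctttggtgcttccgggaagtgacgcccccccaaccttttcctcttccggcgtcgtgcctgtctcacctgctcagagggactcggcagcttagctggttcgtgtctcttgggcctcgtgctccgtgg
Ran, chr5:129019906-129020205, plus strand: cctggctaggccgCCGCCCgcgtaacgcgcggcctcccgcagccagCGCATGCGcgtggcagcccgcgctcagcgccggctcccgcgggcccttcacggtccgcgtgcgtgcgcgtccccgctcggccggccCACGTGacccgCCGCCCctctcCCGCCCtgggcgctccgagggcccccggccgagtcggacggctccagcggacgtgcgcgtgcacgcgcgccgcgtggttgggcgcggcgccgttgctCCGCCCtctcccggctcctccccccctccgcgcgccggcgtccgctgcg
Amn1, chr6:149188646-149188945, minus strand: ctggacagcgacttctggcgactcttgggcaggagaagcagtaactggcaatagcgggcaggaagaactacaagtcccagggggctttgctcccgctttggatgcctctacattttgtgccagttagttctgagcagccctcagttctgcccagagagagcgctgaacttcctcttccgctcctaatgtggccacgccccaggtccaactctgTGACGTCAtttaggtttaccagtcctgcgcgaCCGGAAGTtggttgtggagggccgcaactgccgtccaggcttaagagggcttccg
The *Amn1* start held the cAMP response element, 37 bases before the annotated start, and an ETS site 5 bases before it, letters that are found in 1.79% and 3.89% of all 32851 windows of the same length. The *Ran* start held the NRF1 core (1.87% of all windows), an E-box (7.15%) and 4 GC boxes (35.7% of windows hold at least 1). Its GC content was 82.0%, with 58 CpG pairs, where the median window has 52.7% and 7 pairs. The *Nap1l1* start held 1 CCAAT box (37.4%) and the *Eif3c* start 2 GC boxes, so that no motif was shared by these genes that were lower. Of the starts not printed, that of *Anapc1* held 1 YY1 site (2.75%), and the 2 of *Lcorl* held an E-box and 2 GC boxes. A match of letters is a description of the window and not a bound site.

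Of the 32 probe sets of the 6 genes, 31 averaged 32 or more in signal, the minimum used here, and were tested. *Ran*, *Anapc1*, *Lcorl* and *Amn1* were higher in *Ccnyl1*-/- testes on all of their 20 tested probe sets, and *Nap1l1* and *Eif3c* were lower on all of their 11. On each of the 31, the 2 *Ccnyl1*-/- mice lay apart from the 2 WT mice, which over all 32438 tested probe sets was the case for 35.9% (higher in *Ccnyl1*-/- testes in 20.6% and lower in 15.3%). Since the genes were picked for this, nothing is read from that count. The probe sets of a gene read the same RNA samples, so that their agreement is not that of independent measurements. Some also share a source sequence in the platform annotation, such as 1415858_at and 1415859_at of *Eif3c*. The same holds for 1434443_at and 1434444_s_at of *Anapc1*, and for 1429978_at and 1453358_s_at of *Amn1*. In *Anapc1* a further pair, 1415680_at and 1417570_at, shares a source sequence too. The only probe set left out, 1433294_at of *Lcorl*, had signals of 10.5 and 15.1 in *Ccnyl1*-/- testes, against 7.43 and 34.1 in WT testes. It overlapped between the genotypes and had a log2 fold change of -0.26, against the direction of the others of its gene. The dimmest probe sets inside the minimum were 1436490_x_at of *Ran*, with a mean signal of 51.1, and 1444271_at of *Anapc1*, with 53.1.

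**Figure D1:**
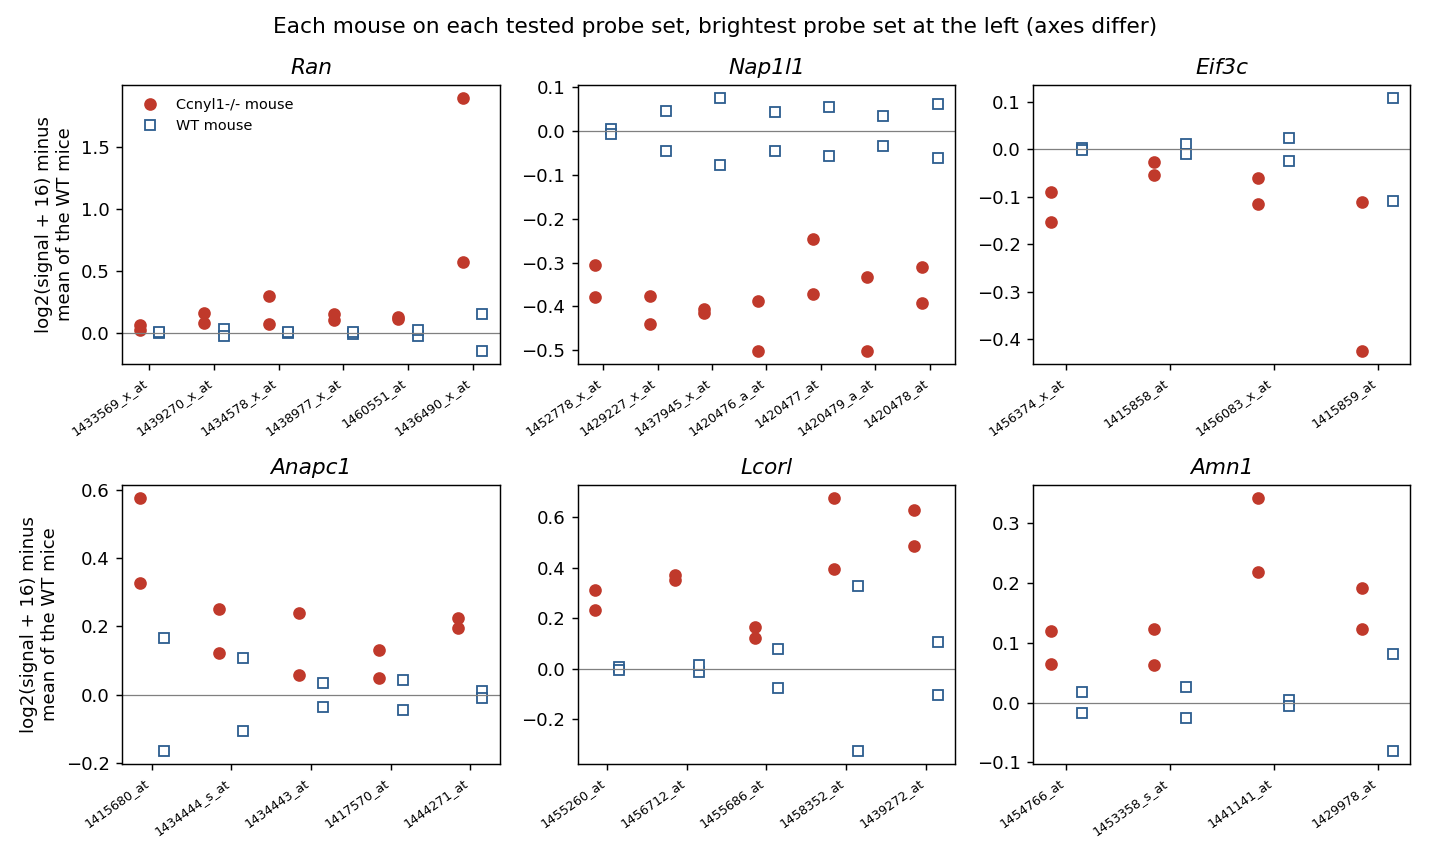
Each mouse on each of the 31 tested probe sets, as log2(signal + 16) minus the mean of the 2 WT mice on that probe set (y axis, a scale of its own in each panel), with *Ccnyl1*-/- mice as filled circles left of WT mice as open squares and the probe sets of a gene ordered by signal. No probe set has overlapping genotypes, and the gaps run from 0.19 to 0.34 on the 7 probe sets of *Nap1l1* and from 0.004 to 0.09 on the 4 of *Eif3c*.

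*Nap1l1* had the most uniform difference of the 6. Its 7 probe sets had log2 fold changes, on the log2(signal + 16) scale, from -0.45 to -0.31 with a median of -0.41, and the signals in *Ccnyl1*-/- testes were 73.3% to 80.6% of those in WT testes. The probe set with the largest difference, 1420476_a_at, had signals of 1727 and 1870 in *Ccnyl1*-/- testes, against 2530 and 2378 in WT testes. All of its mice of a genotype were close together, with 1799 ± 101 in *Ccnyl1*-/- and 2454 ± 107 in WT testes (SD, n = 2 mice each). The brightest one, 1452778_x_at, had 2494 and 2625 in *Ccnyl1*-/- testes, against 3261 and 3236 in WT testes. Its log2 fold change was -0.34. The smallest difference was on 1420477_at, with 1814 and 1979 in *Ccnyl1*-/- testes and 2444 and 2261 in WT testes. On all 7 the difference between the genotypes was larger than that between the 2 mice of either genotype, and the closest mice of opposite genotype were still apart by 0.19 to 0.34 on the log2 scale. The log2 fold changes of these probe sets varied among themselves with an SD of 0.05. They are not independent measurements, since all 7 read the same RNA samples. In the platform annotation 1420476_a_at, 1420477_at, 1420478_at and 1420479_a_at are also paired with the same source sequence. Of the 7, 3 carry the suffix _x_at and 2 the suffix _a_at, which mark probes that can match other transcripts or several transcripts of 1 gene, and the 2 without a suffix had -0.31 and -0.35.

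*Eif3c*, the other gene that was lower, differed by much less. Its 4 log2 fold changes were -0.27, -0.12, -0.09 and -0.04 (median -0.11), and the signals in *Ccnyl1*-/- testes were 83.2% to 97.2% of those in WT testes. On 1456374_x_at, its brightest, the signals were 11366 and 11884 in *Ccnyl1*-/- testes, against 12662 and 12637 in WT testes. On 1415859_at, which had the largest difference, they were 2899 and 3606 in *Ccnyl1*-/- testes, against 4205 and 3615 in WT testes. The genotypes were apart there by only 0.004 on the log2 scale, since *Ccnyl1*-/- replicate 2 and WT replicate 2 were almost alike, and the 2 *Ccnyl1*-/- mice differed by 0.31. In WT testes all 4 probe sets were higher in replicate 1 than in replicate 2. The median was -0.18 with arrays scaled to one median and -0.059 with quantile normalization. That scaling used the median of all 45037 probe sets that are not controls, including those under the minimum signal. Scaling to one median moved the median log2 fold change over all tested probe sets as well, from 0.022 to -0.051.

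*Ran* had 5 probe sets with mean signals from 1565 to 20074 and log2 fold changes from 0.04 to 0.18 (median 0.12), and the dim one named above. The brightest, 1433569_x_at, had signals of 20060 and 20647 in *Ccnyl1*-/- testes, against 19729 and 19860 in WT testes, a log2 fold change of 0.04 that turned to -0.04 when the arrays were scaled to one median. The genotypes lay apart by 0.01 on the log2 scale. Over all 6 probe sets the median was 0.12, against 0.045 with that scaling. The only one of its probe sets without a suffix, 1460551_at, had 1617 and 1644 in *Ccnyl1*-/- testes and 1474 and 1527 in WT testes, a log2 fold change of 0.12. The dim 1436490_x_at had 122 and 39.2 in *Ccnyl1*-/- testes, against 25.2 and 17.5 in WT testes. On the log2(signal + 16) scale its value of 1.23 was the only one of the 31 that reached 1.5-fold, and the 2 *Ccnyl1*-/- mice differed by 1.33 on the same scale. Whether the 5 probe sets of *Ran* with the suffix _x_at also bind the transcript of *Rasl2-9* was not tested. *Rasl2-9* is the testis-expressed copy of *Ran*, on chromosome 7, whereas *Ran* lies on chromosome 5. It was read by 1 probe set, with 7131 and 7340 in *Ccnyl1*-/- testes and 7503 and 7526 in WT testes, and with limma its log2 fold change was -0.05 ± 0.05 (standard error) at an adjusted p = 0.897.

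*Anapc1* was higher by log2 fold changes from 0.09 to 0.45 on its 5 probe sets (median 0.19). The largest value, on the brightest probe set 1415680_at, came with signals of 903 and 757 in *Ccnyl1*-/- testes, against 675 and 534 in WT testes, and replicate 1 was the higher mouse in both genotypes. On 1434444_s_at the signals were 638 and 700 in *Ccnyl1*-/- testes, against 631 and 542 in WT testes. On 1417570_at they were 164 and 154 in *Ccnyl1*-/- testes, against 143 and 153 in WT testes. The genotypes were close to touching on these last probe sets, apart by 0.015 and 0.005 on the log2 scale. The dim 1444271_at had tight mice, with 58.0 ± 1.07 in *Ccnyl1*-/- and 48.1 ± 0.615 in WT testes (SD, n = 2 mice each), and a log2 fold change of 0.21. The median was 0.11 with arrays scaled to one median.

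*Lcorl* had the largest median of the 4 genes that were higher, 0.36 over 5 probe sets, none of which carries a suffix. On 1456712_at the signals were 747 and 736 in *Ccnyl1*-/- testes, against 567 and 579 in WT testes, a log2 fold change of 0.36. On the brightest, 1455260_at, they were 1165 and 1103 in *Ccnyl1*-/- testes, against 940 and 932 in WT testes, a log2 fold change of 0.27. The mice of a genotype were close together on this pair, and the genotypes were apart by 0.34 and 0.23 on the log2 scale. On 1458352_at, which was dim, the signals were 70.4 and 89.1 in *Ccnyl1*-/- testes and 36.3 and 66.5 in WT testes, so that its log2 fold change of 0.54 was smaller than the difference of 0.66 between the WT mice. The other dim one, 1439272_at, had 69.7 and 78.7 in *Ccnyl1*-/- testes, against 40.9 and 49.7 in WT testes, and a log2 fold change of 0.56. The smallest difference was 0.14, on 1455686_at, with 162 and 167 in *Ccnyl1*-/- testes and 138 and 156 in WT testes, and the WT mice differed there by 0.16.

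*Amn1* was higher by small amounts, with log2 fold changes of 0.09, 0.09, 0.16 and 0.28 (median 0.13). The brightest, 1454766_at, had signals of 7050 and 7323 in *Ccnyl1*-/- testes, against 6656 and 6822 in WT testes. The largest difference, on 1441141_at, came with 538 and 493 in *Ccnyl1*-/- testes, against 423 and 420 in WT testes. On 1429978_at the signals were 194 and 184 in *Ccnyl1*-/- testes and 158 and 179 in WT testes, and the 2 WT mice differed there by as much as the genotypes, 0.16 on the log2 scale. The median was 0.075 without WT replicate 1 and 0.050 with arrays scaled to one median.

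The order of the 2 mice of a genotype was also counted over the probe sets of each gene. Over all tested probe sets, replicate 1 was above replicate 2 in 53.5% for *Ccnyl1*-/- and in 49.0% for WT testes. *Ccnyl1*-/- replicate 1 was above *Ccnyl1*-/- replicate 2 on 1 of 6 probe sets of *Ran*, 1 of 7 of *Nap1l1* and 1 of 4 of *Eif3c*, but on 3 of 4 of *Amn1*, 2 of 5 of *Anapc1* and 2 of 5 of *Lcorl*. WT replicate 1 was above WT replicate 2 on 6 of 7 probe sets of *Nap1l1*, 4 of 4 of *Eif3c* and 4 of 5 of *Anapc1*, against 2 of 6 of *Ran*, 1 of 5 of *Lcorl* and 1 of 4 of *Amn1*. With 2 mice per genotype these counts allow no test. The difference between the genotypes was larger than that between the mice of either genotype on 22 of the 31 probe sets, namely 7 of *Nap1l1* and 3 of each of the other 5 genes. Over all tested probe sets this was so for 23.5%, but a choice of probe sets without overlap raises this share by itself.

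**Figure D2:**
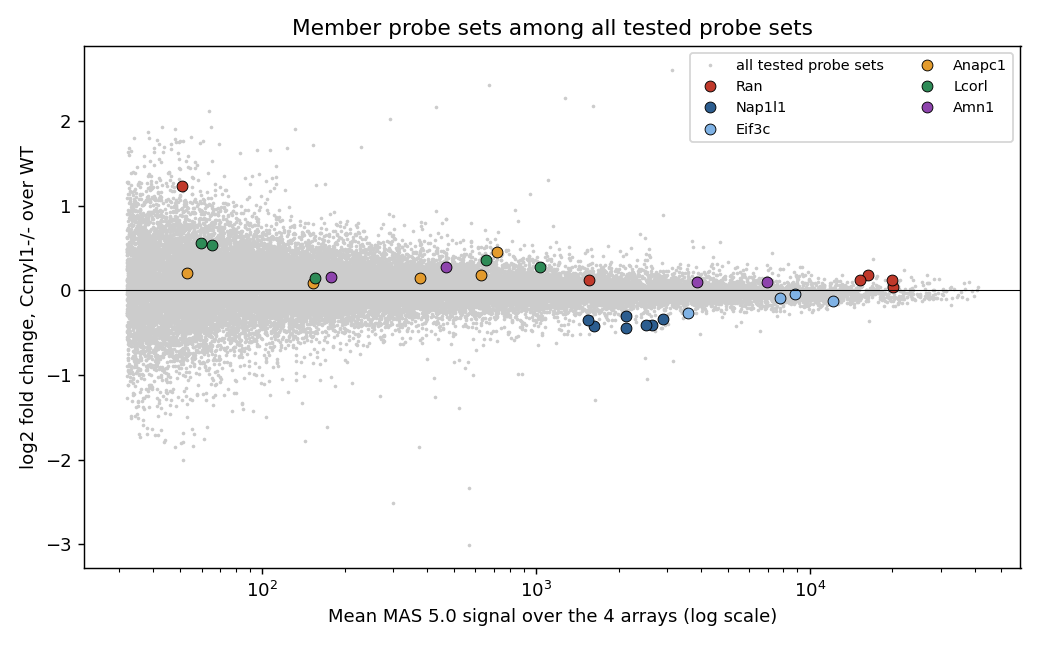
Difference between *Ccnyl1*-/- and WT testis in log2(signal + 16) (y axis) by average MAS 5.0 signal (x axis, log scale), with all 32438 tested probe sets in grey and the 31 probe sets of the 6 genes in colour. The 7 points of *Nap1l1* lie together between -0.45 and -0.31, while the largest values of *Ran* and *Lcorl* are at dim probe sets, where the grey points spread widely as well.

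None of the 31 probe sets passed the limma test over all probe sets at an adjusted p under 0.05, which 0.0123% of all probe sets passed. At an unadjusted p under 0.05 there were 16 with limma and 13 with the methods' t-test, where 6.05% and 5.86% of all probe sets reached it. These are counts on the contrast that chose the genes and are given as a description only. *Ccnyl1* itself, the check of the genotype labels, had 921 and 969 in *Ccnyl1*-/- testes, against 2256 and 2425 in WT testes, and with limma its log2 fold change was -1.29 ± 0.09 (standard error) at an adjusted p = 0.00463.

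How often all probe sets of a gene agreed was counted over all genes. Of the 1218 genes with at least 4 tested probe sets, 188 (15.4%) had all of them on the same side, and 7 (0.575%) had in addition no overlap between the genotypes on any of them, 0.411% higher and 0.164% lower in *Ccnyl1*-/- testes. Those 7 are the 6 genes described here and *Wdfy1*. By the number of tested probe sets, the same-side share was 17.1% of 735 genes with 4 (as *Eif3c* and *Amn1*), 12.9% of 294 with 5 (*Anapc1* and *Lcorl*), 15.4% of 123 with 6 (*Ran*) and 10.9% of 46 with 7 (*Nap1l1*). With no overlap as well, the share was 0.408% at 4, 0.68% at 5, 0.813% at 6 and 2.17% at 7 probe sets, that is 3, 2, 1 and 1 genes, 1 of those with 4 being *Wdfy1*. Among genes with 7 probe sets, *Nap1l1* was the only one of 46 with all of them lower in *Ccnyl1*-/- testes (2.17%). Because the 6 genes were picked for this pattern, these shares describe the choice, and no result about the genes is read from them.

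**Figure D3:**
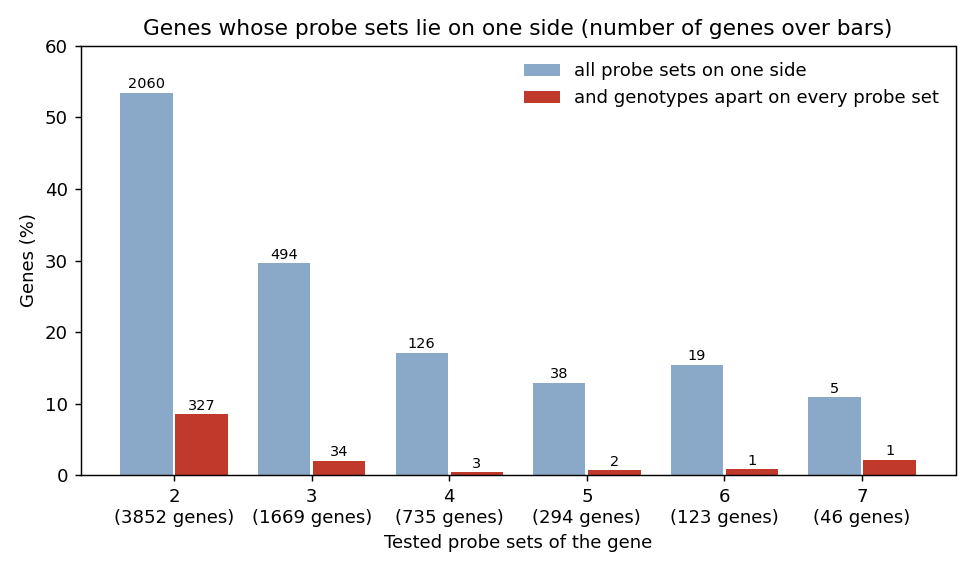
Percentage of genes, by their number of tested probe sets (x axis), whose probe sets all lie on the same side of WT (blue) and that in addition have no overlap between the genotypes on any probe set (red), with the number of genes over each bar. The blue share is 53.5% at 2 probe sets and 10.9% at 7, and the red bars at 4 to 7 probe sets hold 7 genes in all.

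The genes that work with these 6 were taken from 6 lists of 101 genes, of which 89 were measured. On their brightest probe sets 0 of the 89 passed the limma test in either direction at an adjusted p under 0.05, as against 3 lower and 0 higher of all 15268 genes tested. At an unadjusted p under 0.05 there were 4 of the 89 with limma (4.49%, beside 6.29% of all genes tested) and 10 with the methods' t-test, of which 0 passed after adjustment. The medians of the lists ran from -0.07 to 0.00, beside -0.0004 over all genes tested. Of the 17 list genes with at least 4 tested probe sets, 4 had all on the same side (23.5%, beside 15.4% of all such genes).

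Around *Ran*, 13 of 29 measured genes lay above and 16 below the WT mean (median -0.02). *Kpna4*, an importin alpha, had the largest on a brightest probe set, 0.21 (adjusted p = 0.729 from limma), but its other probe set had -0.18. The signals of *Kpna4* on the brightest were 4160 and 4165 in *Ccnyl1*-/- testes, against 3538 and 3680 in WT testes. *Rangap1*, which makes RAN hydrolyse its GTP, had -0.19 with 4866 and 4795 in *Ccnyl1*-/- testes, against 5396 and 5597 in WT testes (adjusted p = 0.75 from limma), and all 3 of its probe sets were below 0, from -0.33 to -0.18. *Rcc1*, the exchange factor that loads RAN with GTP, had -0.06. *Kpnb1*, importin beta, had log2 fold changes from 0.03 to 0.38 on 4 probe sets, and *Ranbp2* from -0.22 to -0.0009 on 4. None of these passed the test. All probe sets lay on the same side in 29.6% of all genes with 3 tested probe sets and in 17.1% of those with 4.

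Around *Nap1l1*, 3 of 9 measured histone chaperones lay above and 6 below the WT mean (median -0.02). *Nap1l4*, a relative in the NAP family, had -0.07, where *Nap1l1*, which was picked for its difference, had a median of -0.41. On the brightest probe sets the largest differences were -0.15 for *Hira*, which deposits histone H3.3, and 0.11 for *Chaf1b*, a subunit of the replication chaperone CAF-1. In each of these the genotypes overlapped (adjusted p = 0.955 and adjusted p = 0.924 from limma). The other 2 probe sets of *Hira* were above 0, up to 0.24.

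Of the other eIF3 subunits around *Eif3c*, 4 of 10 measured lay above and 6 below the WT mean (median -0.07). *Eif3k* had -0.22 with 4168 and 4204 in *Ccnyl1*-/- testes, against 4563 and 5244 in WT testes (adjusted p = 0.774 from limma). *Eif3a*, the large scaffold subunit, had 0.18 with 9732 and 10696 in *Ccnyl1*-/- testes, against 9433 and 8636 in WT testes (adjusted p = 0.792 from limma). Of the 4 probe sets of *Eif3a*, 3 were above 0, and the lowest had -0.05. The subunits of this complex thus stood on both sides of the WT level, with neither of these genes past the test.

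Around *Anapc1*, 7 of 21 measured genes lay above and 14 below the WT mean on their brightest probe sets (median -0.02). The largest differences on these were negative. Over all tested probe sets of the list the values ran wider, from -0.72 in *Cdc16* to 0.68 in *Anapc7*. *Fbxo5*, an inhibitor of the APC/C, had -0.32 (adjusted p = 0.894 from limma). Its signal averaged 145 ± 63.6 in *Ccnyl1*-/- and 177 ± 25.1 in WT testes (SD, n = 2 mice each), and the genotypes overlapped. *Mad2l1*, the spindle checkpoint protein that holds the APC/C back, had -0.21 with 966 and 960 in *Ccnyl1*-/- testes, against 1130 and 1105 in WT testes (adjusted p = 0.82 from limma). Among the other subunits of the complex, *Anapc4* had 0.12 and *Cdc27*, which binds the coactivators, -0.02. The 4 probe sets of *Cdc27* ran from -0.15 to 0.23, with 2 above 0.

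Around *Lcorl*, 6 of 12 measured genes lay above and 6 below the WT mean (median 0.00). *Lcor*, its paralog, had 0.18 with 283 and 224 in *Ccnyl1*-/- testes, against 230 and 211 in WT testes (adjusted p = 0.898 from limma). All 4 of its probe sets were above 0, from 0.12 to 0.33, though the genotypes overlapped on the brightest. *Jarid2*, which guides PRC2 to its sites, had -0.27 with 629 and 514 in *Ccnyl1*-/- testes, against 718 and 663 in WT testes (adjusted p = 0.83 from limma). The 3 probe sets of *Jarid2* ran from -0.27 to 0.06, with 1 above 0. Of the mammalian relatives of the yeast mitotic exit network, taken for *Amn1*, 3 of 8 were positive and 5 negative (median -0.05), with *Mob1b* at 0.17 and *Lats2* at -0.17 (adjusted p = 0.878 and adjusted p = 0.83 from limma). The probe sets of these genes disagreed: the other of *Mob1b* had -0.43, and the 5 of *Lats2* ran from -0.44 to 0.11, with 2 above 0.

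**Figure D4:**
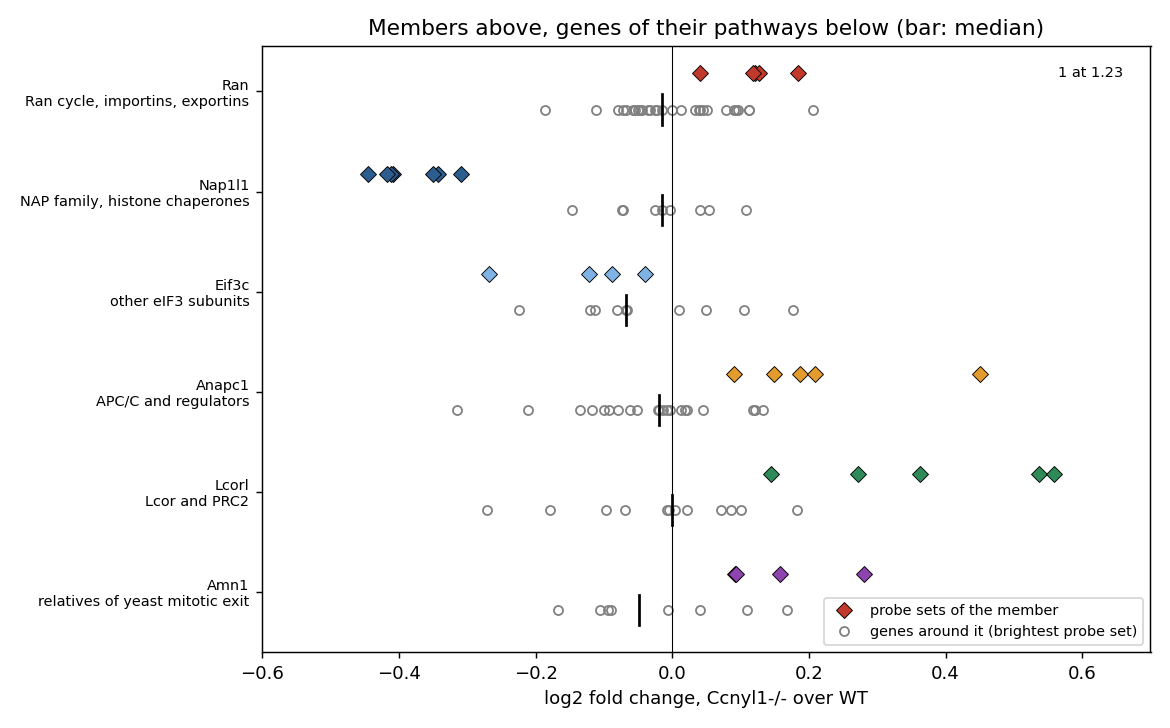
Difference between *Ccnyl1*-/- and WT testis in log2(signal + 16) (x axis) for the probe sets of each of the 6 genes (diamonds, upper row) and for the genes of the list around it on their brightest probe sets (open circles, lower row, with the median as a bar). 1 probe set of *Ran* at 1.23 lies beyond the axis and is written at its right end. The medians of the lists lie between -0.07 and 0.00. The 7 probe sets of *Nap1l1* lie below the brightest probe sets of the genes around it. Since *Nap1l1* was picked for its difference on these arrays and those genes were not, nothing is read from this.

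For each of the 6, the gene with the most similar profile over the 4 arrays was looked up among 2886 other genes with at least 3 tested probe sets, by the Euclidean distance between mean log2 profiles centred on their own mean. It was *Efcab14* for *Ran* (distance 0.04), *Zfp287* for *Nap1l1* (0.06), *Csnk1d* for *Eif3c* (0.03), *Dnajc1* for *Anapc1* (0.01), *Smyd1* for *Lcorl* (0.05) and *Mfap3* for *Amn1* (0.01). The probe sets of these genes were less uniform in part: those of *Dnajc1* ran from -0.10 to 0.59 and those of *Efcab14* from -0.05 to 0.56, while all 3 of *Zfp287* were negative and all 5 of *Smyd1* positive. Those of *Csnk1d* ran from -0.22 to 0.06, with 1 of 5 above 0. All 3 of *Mfap3* were positive, from 0.02 to 0.39, with a median of 0.04 beside a mean of 0.15. The match of *Ran* rests on its dim probe set, which brings its mean log2 fold change to 0.30, beside 0.28 for *Efcab14* and 0.04 to 0.18 for the other 5 probe sets of *Ran*. With 4 arrays, closeness of a profile says little beyond a difference between the genotypes of like size.

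Tested probe sets had median signals of 209 and 203 in *Ccnyl1*-/- testes, against 199 and 197 in WT testes, while the mean without the highest and lowest 2% is set by the scaling, to 500.0 on each array. Correlations between arrays of log2 signals over probe sets ran from 0.977 to 0.98. Markers of all germ cell stages were measured, and those of elongating spermatids had mean signals from 21099 to 40877. Summed over their lists, markers of spermatogonia had 4876 to 5023 in *Ccnyl1*-/- testes, against 4339 to 4690 in WT testes (5 of 5 genes measured), and those of spermatocytes 38561 to 39620 against 36236 to 37369 in WT testes (5 of 5). Round spermatids had 36776 to 37276 in *Ccnyl1*-/- testes and 37661 to 39191 in WT testes (5 of 5), and Sertoli cells 3223 to 3309 in *Ccnyl1*-/- testes and 2976 to 3000 in WT testes (5 of 5). Peritubular myoid cells had 2756 to 3061 in *Ccnyl1*-/- testes and 2519 to 2663 in WT testes (4 of 4). In these 5 lists the genotypes did not overlap, which was also so for 35.9% of all tested probe sets taken singly. The part of these lists in the differences of the 6 genes was not tested. A sum is set largely by its brightest probe sets, with *Dazl* at 85.7% of that of spermatogonia and *Acta2* at 82.4% of that of myoid cells. By single genes, 3 of 5 markers of spermatogonia, 4 of 5 of spermatocytes, 2 of 5 of round spermatids, 5 of 5 of Sertoli cells and 4 of 4 of myoid cells lay above the WT mean, and 0 passed the limma test. For elongating spermatids (6 of 6), Leydig cells (3 of 5) and macrophages (4 of 4) the sums overlapped, as did the 1 measured blood marker of 3. Above the WT mean lay 3 of 6 single markers of elongating spermatids, 3 of 3 of Leydig cells and 0 of 4 of macrophages. The Leydig sums ran from 3948 to 7959 in *Ccnyl1*-/- testes and from 2727 to 5489 in WT testes. Of 4 epididymis markers, only the dim *Lcn8* passed the minimum signal, with 54.1 to 58.2 in *Ccnyl1*-/- testes, against 12.3 to 26.2 in WT testes, and its part was not tested either.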

How the data were processed

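The values deposited by the authors are MAS 5.0 signals, intensities on a linear scale from 1 Affymetrix array per mouse. Per the methods, default settings and global scaling were used, and the tool named in the submitters' processing notes is MAS5. Of 45101 probe sets, 64 Affymetrix controls were left out. In the annotation of the platform, 34945 of the rest have 1 gene, 932 several and 9160 none, and no probe set of the 6 genes is shared with another gene there. The signals were kept as deposited, and log2(signal + 16) was compared in R 4.3.3 with limma 3.58.1 (lmFit, eBayes with an intensity trend, Benjamini-Hochberg over all tested probe sets) for the 32438 probe sets that averaged 32 or more. The test was tried on simulated data. The 6 genes, the lists and the motifs were chosen with earlier results of these data known. In the lists, the genes past the test and the 2 with the largest difference were named by rule. *Rcc1*, *Kpnb1*, *Ranbp2*, *Nap1l4*, *Anapc4*, *Cdc27* and *Wdfy1* were named after their values were seen. A gene of a list stands with its brightest probe set. The methods state a trimmed mean of 100, but the deposited arrays have 500.0, so that the offset and the minimum act lower on the scale than they would at the stated value. The number of arrays limits the precision. Alternatives were other offsets, minimums, scalings and variance models, the methods' t-test, a block for the replicate number, only probe sets with no _x, _s or _a suffix, other summaries of a gene, and leaving out each mouse. Promoter windows are from RefSeq in GRCm38.p6, and all 6 genes matched.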

Additional observations from a re-analysis of the deposited data

How the results depend on the processing

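All 6 genes kept every tested probe set on the same side with no offset, an offset of 32, a minimum signal of 100, quantile normalization, without the suffixes and without each mouse in turn, the last of which the lack of overlap already fixes. Without the suffixes *Ran* has 1 tested probe set, which lies on 1 side by itself, and *Nap1l1* and *Eif3c* have 2 each. With arrays scaled to one median *Ran* lost this, with its brightest probe set at -0.04, and with no minimum signal *Lcorl* did, with the dim probe set at -0.26. Each of these settings left 5 genes. The medians of the 6 genes kept their sign under every setting. With arrays scaled to one median they were 0.045 for *Ran*, -0.49 for *Nap1l1*, -0.18 for *Eif3c*, 0.11 for *Anapc1* and 0.050 for *Amn1*. That scaling also moved the median over all tested probe sets, from 0.022 to -0.051, so that a shift downward is not particular to these genes. With quantile normalization *Eif3c* had -0.059, and with a minimum of 100 *Lcorl* had 0.27. Without the suffixes *Nap1l1* had -0.33, *Eif3c* -0.15 and *Amn1* 0.16. By the mean of the probe sets *Ran* had 0.30, which rests on its dim probe set, and *Amn1* 0.16. By the brightest probe set *Ran* had 0.040, *Nap1l1* -0.34, *Anapc1* 0.45, *Lcorl* 0.27 and *Amn1* 0.092. Without 1 mouse the medians ran from 0.09 to 0.16 for *Ran*, -0.41 to -0.33 for *Nap1l1*, -0.13 to -0.08 for *Eif3c*, 0.13 to 0.24 for *Anapc1*, 0.28 to 0.38 for *Lcorl* and 0.075 to 0.18 for *Amn1*. Genes with at least 4 tested probe sets all on the same side numbered 188 here, 114 with a minimum of 100, 73 without the suffixes, 160 to 191 without 1 mouse, and 84 with signals rescaled to a trimmed mean of 100, a setting added after the data were seen. Fewer probe sets are tested in those 3 smaller counts.

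Over all probe sets limma called 4, and 7 with arrays scaled to one median, 0 without the trend, 0 with the methods' t-test after adjustment, and 6 to 55 without 1 mouse (46 without WT replicate 1, 55 without WT replicate 2, 7 without *Ccnyl1*-/- replicate 1). With the replicate number as a block it called 14, of which 4 were higher and 10 lower in *Ccnyl1*-/- testes. The deviations of same-numbered mice correlated at 0.01 over the tested probe sets. The labels give the mice only a replicate number, and whether same-numbered mice share anything else cannot be told from 1 such correlation. No gene of the 6 lists passed the test under any of these settings, and the cause of the changed counts was not tested. The medians of the lists did not all keep their sign. By the median of the tested probe sets of a gene they were 0.008 around *Anapc1*, 0.013 around *Ran*, 0.009 around *Nap1l1* and -0.007 around *Eif3c*. With arrays scaled to one median the lists ran from -0.15 to -0.08.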
